A study of Mus musculus with 8 samples.

Results

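The proteasome is the protease complex that degrades proteins tagged with ubiquitin. Its 48 genes analysed here were found by name, as the symbols that begin with Psma to Psmg followed by a number. That rule matched 50 of the 30918 genes measured in multipotent progenitors, a cell population of the bone marrow below the long-term stem cell. Of the 50, 2 code for no proteasome protein: the pseudogene Psmb5-ps, and Psmc3ip, whose product acts in meiotic recombination. They are kept apart from the counts below. Psme2b, a close relative of Psme2, had no probe set under that symbol. The 48 genes comprise 19 of the 20S core (8 Psma and 11 Psmb), 6 ATPases (Psmc), 14 other genes of the 19S cap (Psmd), 4 activators (Psme), 4 assembly chaperones (Psmg) and the inhibitor gene Psmf1. Each had 1 probe set. Their names do not fully follow their roles: of the 14 Psmd genes, 8 encode the lid, 3 the non-ATPase part of the base, and 3 (Psmd5, Psmd9 and Psmd10) chaperones that help to assemble the base and leave it afterwards.

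In the 4 Elektra samples both copies of Slfn2 carried the elektra allele (Slfn2 elektra/elektra), a loss-of-function coding change in Slfn2. The 4 wild-type arrays came from Slfn2 wt/wt littermates, both genotypes being bred on a C57Bl/6 background and left untreated. The allele is present in every cell of the animal and throughout its life, so changes in progenitors and in their surroundings are not separated. Ages are not given in the labels. Cells were sorted as LSK CD48- CD150-, and per the labels the bones of 2 mice were pooled for each sample, whereas the description of the series speaks of 4 mice per genotype. Nothing else about the origin of the replicates is given, so p-values measure the spread between these pooled samples. If both statements hold, the arrays of a genotype may share animals, whereas the tests below treat all arrays as independent. The sort genes Kit and Ly6a (Sca-1) averaged 9.06 and 9.09 in log2 intensity over all arrays. Ly6a averaged 9.27 ± 0.16 in Elektra, against 8.91 ± 0.36 in wild type (log2 change 0.36, limma unadjusted p = 0.0624, adjusted p = 0.884). Kit averaged 8.97 ± 0.13 in Elektra, against 9.16 ± 0.09 in wild type (log2 change -0.20, limma unadjusted p = 0.0757, adjusted p = 0.884). The groups overlapped for both genes. Of the 2 genes whose proteins the gate excludes, Slamf1 (CD150) averaged 1.73, below the 40th percentile of all genes at 1.76, which is called the dim level here, while Cd48 averaged 3.93, above that level. Cd34 averaged 8.42. Flt3, a marker of lymphoid-primed progenitors, averaged 7.09 ± 0.16 in Elektra, against 7.43 ± 0.07 in wild type, without overlap (log2 change -0.34, limma unadjusted p = 0.00904, adjusted p = 0.884), and its part in the proteasome values was not tested.

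In the 26S proteasome, 2 rings of alpha subunits enclose 2 rings of beta subunits, and only 3 kinds of beta subunit cut proteins. Ring-shaped ATPases in the cap unfold the substrate, and the lid removes its ubiquitin. Cells of the blood system also make the immunoproteasome, in which Psmb8, Psmb9 and Psmb10 take the places of Psmb5, Psmb6 and Psmb7, and which is known for making peptides for display on MHC class I. In many cell types the subunit genes are regulated together, among others by the factor NFE2L1, which restores proteasome synthesis when degradation falls short.

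Array quality bears on all values that follow. Correlations between arrays over the annotated probe sets lay between 0.966 and 0.988. Elektra replicate 2 stood apart, its first principal component being 58.2 and that of the others between -15.2 and -2.40. Among genes at or above the dim level, 28.1% had their lowest value in that array. Elektra replicate 3 had the highest mean of the B cell genes (6 of 7 measured), at 3.15 against 2.64 to 2.98 elsewhere, and of the erythroid genes (all 6), at 3.38 against 2.74 to 3.27. Most single changes below are small enough to depend on 1 array: of the 33 proteasome genes named by rule, 28 had a log2 change that moved by over 1.5 times or turned its sign when some 1 array was left out. The other 5 were Psmb5, Psmc5, Psmd9, Psmd10 and Psmg3.

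No proteasome gene passed the test between genotypes. In limma, 0 of the 48 had an adjusted p under 0.05, against 0% of all 30918 genes, and the lowest adjusted p was 0.884. Psmd10, Psmd9 and Psmd5, 3 of the 48, had an unadjusted p under 0.05, against 5.5% of all genes. By direction, Psmd9 was the 1 higher (2.63% of all genes) and Psmd10 and Psmd5 were the 2 lower (2.87%). The values of the groups did not overlap for 3 of 48 (Psmd10 lower, Psmd9 and Psmb4 higher in Elektra), against 3.23% of all genes, of which 1.86% were higher and 1.37% lower. The share without overlap was above that of all genes, but counts of 1 to 3 genes are too small to be told from the background. Of the 48 genes, 36 had a 95% interval that stayed within 0.5 of 0 on the log2 scale (75% of them, against 71.0% of all genes), and all had one within 1 of 0 (against 97.5% of all genes). In such samples of many cells, a change in the number of cells that hold a transcript and a change in RNA per cell cannot be told apart.

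The direction of the small differences was nevertheless uneven. In the 36 genes whose products are subunits of the core, ATPase ring, base and lid, 34 had higher means in Elektra, and their log2 changes had a median of 0.11 and ran from -0.05 to 0.26. Positive log2 changes made up 53.9% of all genes, whose median was 0.01, and 48.5% of the genes at or above the dim level, whose median was -0.01. The count was 32 of 34 with dim genes left out, which drops Psma5 and Psmb11. Of all 36, it was 35 with quantile normalization, where 52.4% of all genes were above 0, and 29 with median centring, where 42.4% were. It also depended on single arrays: it was 25 without Elektra replicate 3 (median 0.07), 27 without wild type replicate 1 (0.07), 30 without Elektra replicate 4 (0.09) and 36 without Elektra replicate 2 (0.19). As subunits of 1 complex vary together across arrays, the 36 genes are not 36 separate observations, and the count carries no test. Activators and assembly chaperones were split, at 2 higher and 2 lower each.

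**Figure D1:**
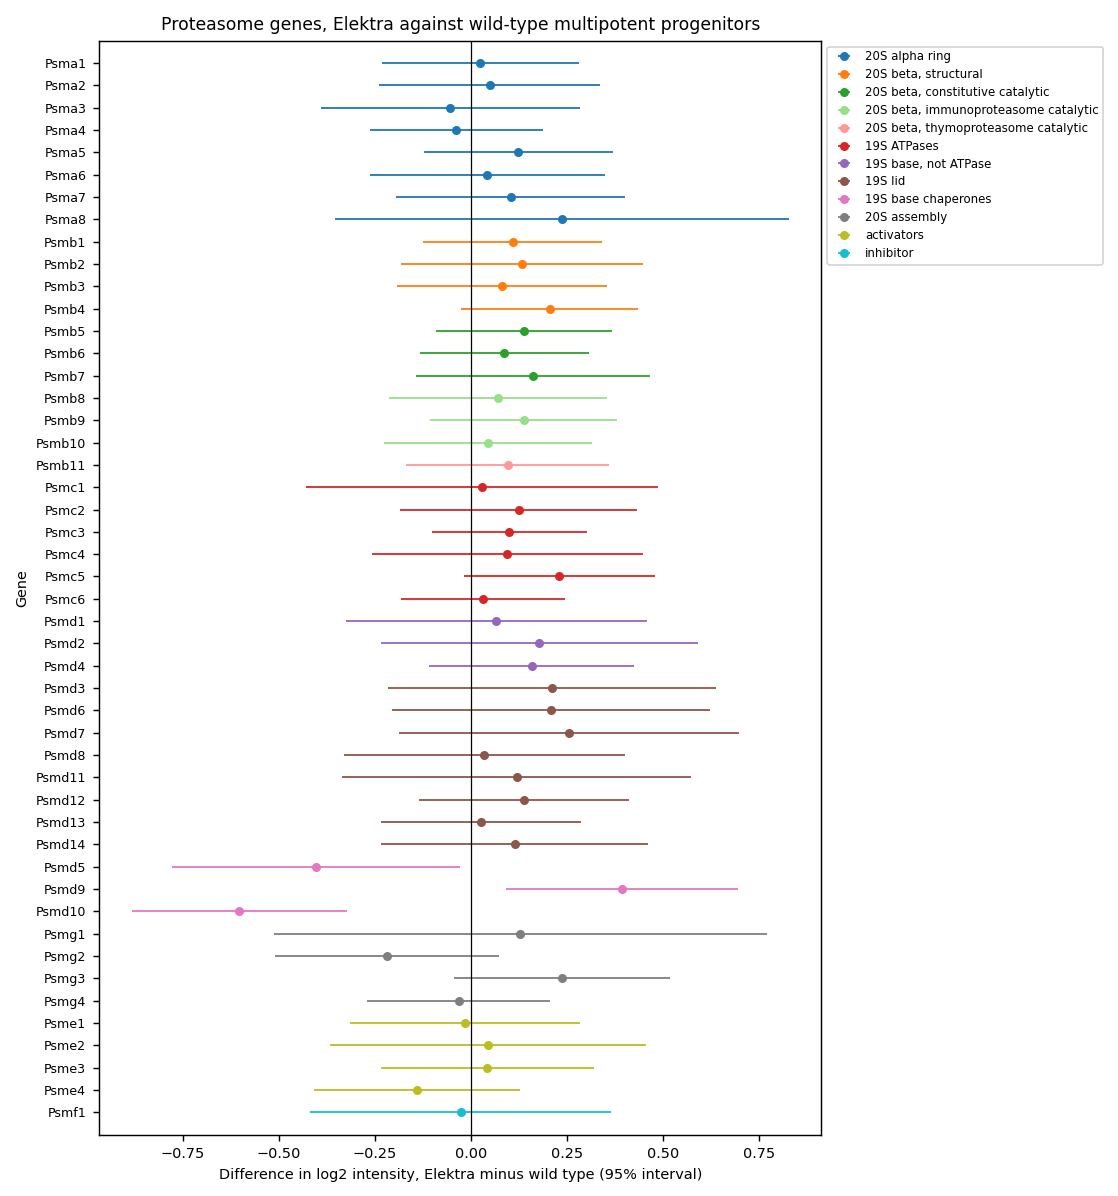
Difference in log2 intensity between Elektra and wild type (x axis) for the 48 proteasome genes, ordered and coloured by subunit class, with limma's 95% intervals. Of the 36 core, ATPase, base and lid genes 34 lie to the right of 0 with intervals that cross it, while the base chaperones Psmd5, Psmd9 and Psmd10 lie at -0.40, 0.39 and -0.60.

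The 3 chaperone genes of the 19S base had the smallest p-values of the 48 and went in different directions. Each chaperone binds a pair of ATPases while the ring is built. Psmd10, which encodes gankyrin, the partner of the ATPases Psmc4 and Psmc5 and an oncoprotein in liver cancer, had log2 intensities of 5.33, 5.09, 4.97 and 4.78 in Elektra replicates 1 to 4, against 5.75, 5.53, 5.57 and 5.73 in wild type. Every Elektra array lay below every wild-type array. The log2 change was -0.60 (SE 0.13, 95% interval from -0.88 to -0.32; limma unadjusted p = 0.000739, adjusted p = 0.884). It lay between -0.70 and -0.52 over all alternatives run.

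Psmd5, the chaperone of Psmc1 and Psmc2, had log2 intensities of 5.12, 4.81, 5.59 and 5.41 in Elektra, against 5.61, 5.83, 5.42 and 5.69 in wild type. Elektra replicates 1, 2 and 4 were below all wild-type arrays, replicate 4 by a narrow margin, while replicate 3 lay within their range. The log2 change was -0.40 (SE 0.17, limma unadjusted p = 0.0380, adjusted p = 0.884). Without Elektra replicate 2, which stood apart on the whole profile, it was -0.26.

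Psmd9, the chaperone of Psmc3 and Psmc6, was higher in every Elektra array. Its log2 intensities were 3.69, 4.05, 3.71 and 3.75 in Elektra, against 3.52, 3.63, 3.11 and 3.37 in wild type, a log2 change of 0.39 (SE 0.14, limma unadjusted p = 0.0156, adjusted p = 0.884). The highest wild-type array lay just below the lowest Elektra array. The fourth chaperone of the base, Paaf1, had no probe set under its symbol.

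**Figure D2:**
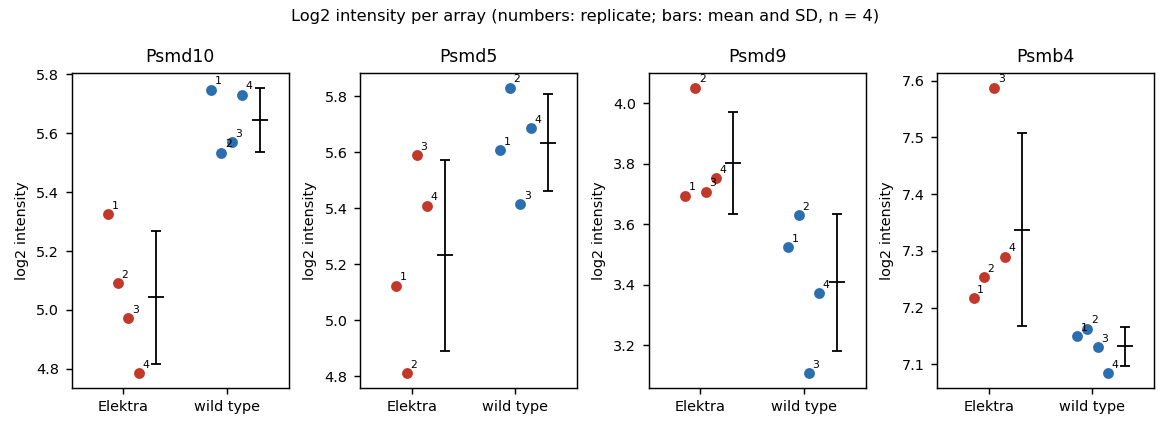
Log2 intensity in each array for Psmd10, Psmd5, Psmd9 and Psmb4, with the mean and SD of 4 arrays beside the points. Elektra lies below wild type without overlap for Psmd10 and above it without overlap for Psmd9 and Psmb4, and the groups overlap for Psmd5.

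The promoters of these 3 genes and of Psmb4 are shown because these members had the 3 smallest p-values or groups that did not overlap. Each line gives the 250 bases before the transcript start of RefSeq in build GRCm38.p6, on the strand of the gene, at chrX:140956712-140956961 (Psmd10, minus strand), chr2:34870963-34871212 (Psmd5, minus strand), chr5:123227940-123228189 (Psmd9, plus strand) and chr3:94886959-94887208 (Psmb4, minus strand). Capitals mark matches, on either strand, to the CCAAT box (CCAAT), the GC box (GGGCGG), the core of the antioxidant response element (TGACNNNGC), its full form (TGANTCAGC), the interferon response element (a pair of GAAA, 2 bases apart) and the gamma-activated site (TTCNNNGAA).
Psmd10: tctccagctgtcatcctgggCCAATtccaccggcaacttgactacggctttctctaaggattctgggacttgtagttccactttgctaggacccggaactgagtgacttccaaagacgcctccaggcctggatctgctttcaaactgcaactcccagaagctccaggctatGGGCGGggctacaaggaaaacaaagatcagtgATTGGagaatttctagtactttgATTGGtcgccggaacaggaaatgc
Psmd5: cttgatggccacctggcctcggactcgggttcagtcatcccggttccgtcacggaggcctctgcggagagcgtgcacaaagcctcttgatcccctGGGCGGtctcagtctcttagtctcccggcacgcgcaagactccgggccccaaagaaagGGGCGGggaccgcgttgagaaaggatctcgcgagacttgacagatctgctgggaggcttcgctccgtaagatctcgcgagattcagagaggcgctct
Psmd9: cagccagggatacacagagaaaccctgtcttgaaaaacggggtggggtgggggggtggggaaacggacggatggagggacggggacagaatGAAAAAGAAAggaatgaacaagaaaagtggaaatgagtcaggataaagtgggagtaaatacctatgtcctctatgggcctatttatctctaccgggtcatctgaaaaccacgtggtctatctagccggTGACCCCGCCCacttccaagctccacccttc
Psmb4: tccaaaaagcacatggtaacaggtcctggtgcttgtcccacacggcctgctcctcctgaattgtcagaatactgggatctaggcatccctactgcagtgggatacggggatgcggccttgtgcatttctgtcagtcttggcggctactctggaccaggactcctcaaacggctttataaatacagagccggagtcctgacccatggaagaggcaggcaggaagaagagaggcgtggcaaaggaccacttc
The Psmd10 window holds 3 CCAAT boxes and 1 GC box, that of Psmd5 2 GC boxes, and that of Psmd9 an interferon response element and an antioxidant core that overlaps a GC box. None of the 6 motifs was found in the window of Psmb4. A match is a description of the letters and not evidence of binding.

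Over all members, 40 of the 48 genes had a promoter in the RefSeq table, 43 promoters in all, each of 300 bases (250 before and 50 after the start). The GC box was present in 55.8% of them, against 35.7% of all 32851 promoters, and the CCAAT box in 32.6% against 37.4%. The core of the antioxidant response element, the motif bound by NFE2L1 and NFE2L2, was present in 6 of the 43 promoters, against 12.4% of all. Its full form occurred in 1 of the 43, that of Psmb5, against 1.19% of all promoters. The interferon response element was found in 5 of the 43 (11.6%, against 3.44%), in the promoters of Psmb3, Psmd4, Psmd9, Psme1 and Psmg4, and the gamma-activated site in 6.98% against 8.3%.

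The ATPases that these chaperones bind did not pass either. All 6 had log2 changes above 0, with a median of 0.10, but 4 of 6 did without Elektra replicate 3 (median 0.04) and 4 of 6 with median centring, and the median was 0.23 without Elektra replicate 2 and 0.05 without Elektra replicate 4. Psmc5 had the largest, at 6.39, 6.54, 6.74 and 6.75 in Elektra, against 6.35, 6.48, 6.42 and 6.24 in wild type, a log2 change of 0.23 (SE 0.11, adjusted p = 0.884). Elektra replicates 2, 3 and 4 were above all wild-type arrays, and replicate 1 lay within their range. Psmc4 (0.10), Psmc3 (0.10), Psmc2 (0.12), Psmc1 (0.03) and Psmc6 (0.03) had smaller log2 changes. Psmc2 was 5.33 ± 0.29 in Elektra, from 4.93 to 5.64, and 5.20 ± 0.02 in wild type, where it was nearly constant (SD, n = 4 each).

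In the core particle, the alpha ring, which gates the entry of substrates, had a median log2 change of 0.05 over its 8 genes, of which 6 were above 0. Without Elektra replicate 3 the median was -0.03 with 3 of 8 above 0, and with median centring it was 0.006 with 5 of 8. It was 0.02 without Elektra replicate 4, 0.01 without wild type replicate 1, 0.08 without Elektra replicate 1, and 0.10 in both settings without Elektra replicate 2 or wild type replicate 2. Psma7 averaged 7.74 ± 0.24 in Elektra, against 7.64 ± 0.14 (SD, n = 4) in wild type, and Psma3 (-0.05) and Psma4 (-0.04) were the members with negative log2 changes. Psma5 lay below the dim level in every array, at 1.44, 1.73, 1.56 and 1.28 in Elektra, against 1.43, 1.35, 1.42 and 1.32 in wild type. Psma5 is a constituent of every proteasome, so the level from this probe set is not interpreted here. Psma8, the form of the alpha ring found in testis, averaged 3.18 ± 0.27 in Elektra, against 2.94 ± 0.59 in wild type, with wild type replicate 4 low at 2.08.

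The structural beta genes Psmb1 to Psmb4 had 4 of 4 log2 changes above 0, with a median of 0.12 (0.06 without Elektra replicate 3 and 0.19 without Elektra replicate 2). Psmb3 averaged 2.73 over all arrays, against 7.23 for Psmb4 and 8.16 for Psmb1, and the level from its probe set is not interpreted here. Psmb4 had log2 intensities of 7.22, 7.25, 7.59 and 7.29 in Elektra, against 7.15, 7.16, 7.13 and 7.08 in wild type. The groups did not overlap, and Elektra replicate 3 was the highest. The log2 change was 0.21 (SE 0.10, limma unadjusted p = 0.0764, adjusted p = 0.884). It was 0.12 without Elektra replicate 3, and with median centring the groups overlapped. Psmb2 averaged 7.96 ± 0.28 in Elektra, against 7.83 ± 0.10 in wild type, and Psmb1 averaged 8.21 ± 0.15 in Elektra, against 8.11 ± 0.10 in wild type (SD, n = 4 each).

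The constitutive catalytic subunits were close between genotypes. Psmb5, which carries the chymotrypsin-like activity and is the target of bortezomib, was 7.85, 7.79, 8.05 and 8.05 in Elektra, against 7.77, 7.69, 7.80 and 7.93 in wild type. Its log2 change was 0.14 (SE 0.10, 95% interval from -0.09 to 0.37), with groups that overlap. Psmb6, with the caspase-like activity, averaged 6.26 ± 0.14 in Elektra, against 6.17 ± 0.07 in wild type, and Psmb7, with the trypsin-like activity, averaged 6.30 ± 0.14 in Elektra, against 6.14 ± 0.25 in wild type. Psmb5-ps, the pseudogene, averaged 3.75 ± 0.27 in Elektra, against 3.83 ± 0.16 in wild type. Whether probes separate it from Psmb5 was not tested.

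The immunoproteasome subunits, which interferon-gamma is known to induce, did not pass either. Psmb9 was 7.53, 7.35, 7.58 and 7.57 in Elektra, against 7.14, 7.51, 7.45 and 7.39 in wild type, a log2 change of 0.14 (SE 0.11, adjusted p = 0.896). Wild type replicate 1 was the low array. Psmb8 was 5.79, 5.54, 6.08 and 5.71 in Elektra, against 5.55, 5.79, 5.67 and 5.82 in wild type, and the groups overlapped throughout. Psmb10 was 7.14, 7.04, 7.37 and 7.34 in Elektra, against 6.94, 7.18, 7.36 and 7.24 in wild type, with a log2 change of 0.05 (SE 0.12). The thymus-specific Psmb11 had a mean below the dim level, at 1.68 ± 0.19 in Elektra and 1.59 ± 0.12 in wild type.

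The difference between an immunoproteasome subunit and the constitutive subunit it replaces is taken within an array. It is free of an array-wide shift that is equal at all intensities, but not of one that varies with intensity. Elektra replicate 2 had the highest median over the probe sets (2.13) and the lowest upper quartile (3.63). Because the probes differ, the sign of the difference says nothing about which subunit is more abundant. Only the change of the difference between genotypes was compared. Psmb8 minus Psmb5 averaged -2.16 ± 0.17 in Elektra, against -2.09 ± 0.14 (SD, n = 4) in wild type, a change of -0.07 (95% interval from -0.33 to 0.20; exact permutation p = 0.571). Psmb9 minus Psmb6 averaged 1.25 ± 0.08 in Elektra, against 1.20 ± 0.14 in wild type, a change of 0.05 (from -0.15 to 0.24; exact p = 0.543). Psmb10 minus Psmb7 averaged 0.93 ± 0.11 in Elektra, against 1.04 ± 0.28 in wild type, a change of -0.12 (from -0.49 to 0.25; exact p = 0.457). After adjustment over the 3 differences each two-sided p was 0.571, and with 70 relabelings the smallest p possible is 0.0286.

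**Figure D3:**
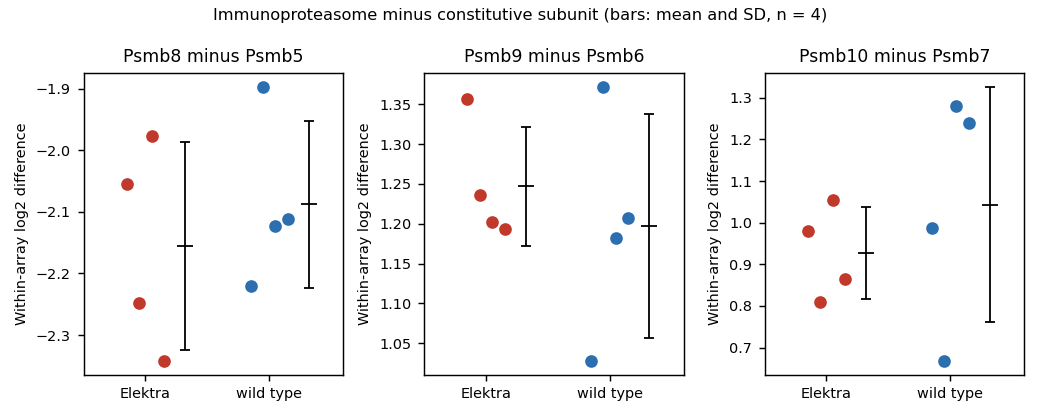
Within-array log2 difference between each immunoproteasome subunit and its constitutive counterpart, 1 point per array, with the mean and SD of 4 arrays. The groups overlap in all 3 panels, and the means differ by -0.07, 0.05 and -0.12 between Elektra and wild type.

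In the non-ATPase part of the base, all 3 log2 changes were above 0. Psmd2, the scaffold on which shuttle factors dock, averaged 6.64 ± 0.35 in Elektra, against 6.46 ± 0.25 in wild type. Psmd4, a receptor for ubiquitin chains, averaged 4.71 ± 0.17 in Elektra, against 4.55 ± 0.16 in wild type, and the scaffold gene Psmd1 had a log2 change of 0.07. Wild type replicate 1 and Elektra replicate 2 were the lowest arrays for Psmd1 and Psmd2.

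The lid had 8 of 8 log2 changes above 0, with a median of 0.13. Without Elektra replicate 4 there were 6 of 8 (median 0.07), and 6 of 8 also on leaving out Elektra replicate 1, wild type replicate 1 or replicate 4 of wild type, and with median centring. Without Elektra replicate 2 the median was 0.21. Psmd7, the partner of the deubiquitinase Psmd14, had 6.92, 6.66, 7.46 and 6.96 in Elektra, against 6.65, 6.75, 7.18 and 6.39 in wild type. The number-3 arrays were the highest of both groups, and the log2 change was 0.26 (SE 0.20, adjusted p = 0.896). It was -0.02 on leaving out Elektra replicate 3 and wild type replicate 4 together. Psmd6 averaged 5.96 ± 0.28 in Elektra, against 5.75 ± 0.33 in wild type, with wild type replicate 1 at 5.26 against 5.88 to 5.97 in the other wild-type arrays. Psmd12 averaged 5.91 ± 0.15 in Elektra, against 5.77 ± 0.19 in wild type, and the deubiquitinase gene Psmd14 itself had a log2 change of 0.11.

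Assembly of the 20S core is guided by pairs of chaperones, Psmg1 with Psmg2 and Psmg3 with Psmg4. Psmg3 had log2 intensities of 4.98, 5.12, 4.81 and 4.65 in Elektra, against 4.47, 4.73, 4.81 and 4.60 in wild type, a log2 change of 0.24 (SE 0.13, adjusted p = 0.885). Psmg2 lay the other way, at 4.28 ± 0.19 in Elektra and 4.50 ± 0.19 in wild type. Psmg1 had a wide spread between arrays, from 5.05 to 6.35 in Elektra and from 5.07 to 6.09 in wild type. The log2 change of Psmg4 was -0.03.

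Among the activators, Psme1 and Psme2 form the ring induced by interferon-gamma that opens the core. Psme1 averaged 5.92 ± 0.28 in Elektra, against 5.94 ± 0.04 in wild type, and Psme2 averaged 4.21 ± 0.40 in Elektra, against 4.17 ± 0.15 in wild type. Both varied more between Elektra arrays than between wild-type arrays. Psme4, which acts in histone degradation, had a log2 change of -0.14 (SE 0.12) and the nuclear activator Psme3 one of 0.04. The inhibitor gene Psmf1 averaged 3.41 ± 0.17 in Elektra, against 3.43 ± 0.37 in wild type.

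Each gene was set against its own mean over the 8 arrays. The median deviation of the 48 genes was -0.01, -0.16, 0.21 and 0.13 in Elektra replicates 1 to 4, against -0.10, -0.0015, 0.00037 and -0.0069 in wild type replicates 1 to 4. Elektra replicate 3 held the highest value of 25 of the 48 genes, or 52.1%, against 14.9% of all genes at or above the dim level, and it held the lowest of none. Elektra replicate 2 held the lowest value of 16 (33.3%, against 28.1% of those genes), and wild type replicate 1 of 12 (25%, against 14.5%). The Elektra arrays thus held both the highest and the lowest medians. With quantile normalization the median deviation of Elektra replicate 2 was 0.004, and those of replicates 3 and 4 stayed between 0.12 and 0.21 in every scaling run.

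**Figure D4:**
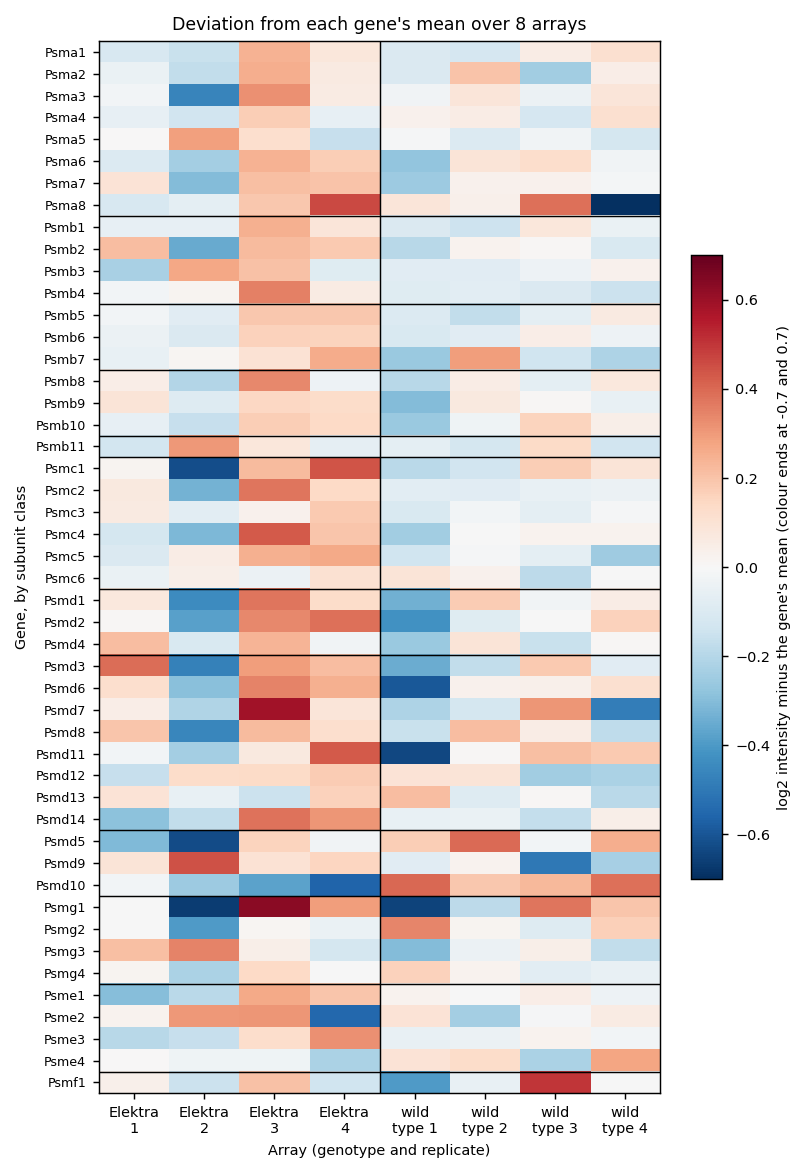
Deviation of each of the 48 genes (rows, by subunit class) from its own mean over 8 arrays (columns), in log2 units, red above and blue below the mean. Elektra replicate 3 is mostly red, with 25 of the 48 highest values, and Elektra replicate 2 and wild type replicate 1 are mostly blue.

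Most subunit classes had a like pattern over the arrays. The 19 core genes had median deviations of -0.05, -0.10, 0.20 and 0.09 in Elektra replicates 1 to 4, and the 8 lid genes of 0.07, -0.22, 0.25 and 0.20. In wild type replicate 1 the same classes had -0.10 and -0.19. All 19 core genes were above their mean in Elektra replicate 3. The base chaperones had another pattern, with -0.02, -0.25, 0.10 and -0.03 in Elektra, against 0.17, 0.19, -0.02 and 0.25 in wild type. These are medians of only 3 genes, of which Psmd9 was higher and Psmd5 and Psmd10 were lower in Elektra. The activators (-0.02) and 20S assembly chaperones (-0.03) were also below 0 in Elektra replicate 4. In wild type replicate 1 the activators had 0.06. The means of the B cell, erythroid, macrophage, and mast cell and basophil marker genes were also highest in Elektra replicate 3. So was that of the sort marker genes (Kit, Ly6a, Cd34, Flt3, Cd48 and Slamf1). For the macrophage and sort sets the lead over wild type replicate 3 was narrow. The mast cell and basophil mean lay below the dim level in every array. T and NK cell genes were highest in Elektra replicate 2, and megakaryocyte and dendritic cell genes in Elektra replicate 1. Mature neutrophil genes were highest in wild type replicate 2. The part of these marker genes in the proteasome values was not tested.

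**Figure D5:**
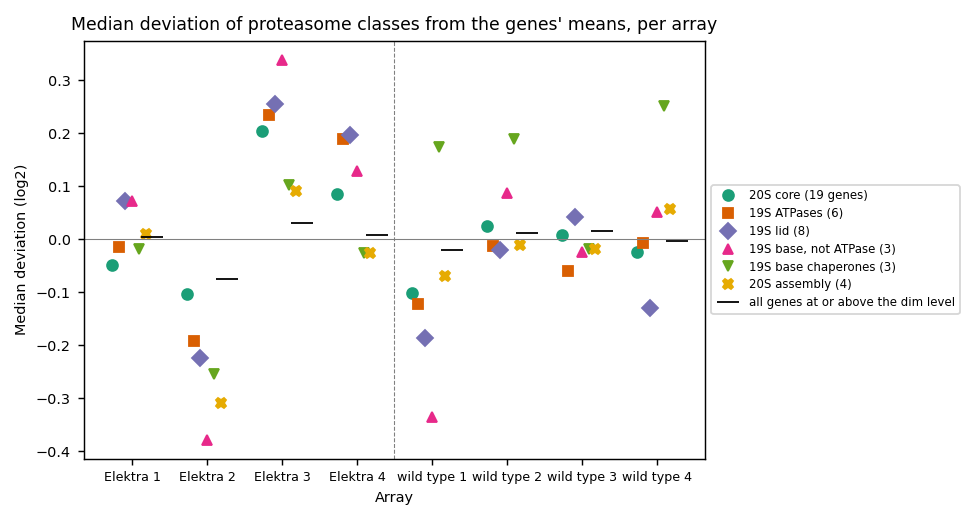
Median deviation in log2 units (y axis) of 6 proteasome classes and of all genes at or above the dim level (black bars) in each array (x axis). Core, ATPase, lid and other base genes are above 0 in Elektra replicates 3 and 4 and below 0 in Elektra replicate 2 and wild type replicate 1, and the base chaperones are high in 3 of 4 wild-type arrays.

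Other genes of the pathway gave no call. Of 16 further subunits and partners 15 were measured, 7 higher and 8 lower in Elektra, the median log2 change being -0.05. Of the 15, 1 had an unadjusted p under 0.05, against 5.5% of all genes. This was Adrm1, a ubiquitin receptor of the cap, at 6.19 ± 0.10 in Elektra and 5.95 ± 0.13 in wild type (log2 change 0.24, limma adjusted p = 0.884). Shfm1 (now Sem1), a small lid subunit, had a log2 change of 0.14, the shuttle factor gene Ubqln2 of 0.14, and Pomp, the maturation factor of the core, of 0.10.

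The 13 genes that control proteasome transcription had 9 log2 changes above 0 and 4 below (median 0.06). Of the 13, 1 had an unadjusted p under 0.05 (5.5% of all genes) and 1 did not overlap between groups (3.23%). Both counts are Nfya. Nfya, the subunit of NF-Y that contacts the CCAAT box, averaged 6.78 ± 0.16 in Elektra, against 7.04 ± 0.09 in wild type, without overlap (log2 change -0.26, limma unadjusted p = 0.0363, adjusted p = 0.884). Mafk (0.34) and Mafg (0.27), partners of NFE2L1 on DNA, had log2 changes in the other direction, but Mafk had 0.17 without Elektra replicate 1 and Mafg 0.11 without wild type replicate 1, and Nfe2l1 itself had 0.08 (SE 0.12). Of 9 genes of ubiquitin supply and extraction, 4 were higher and 5 lower in Elektra (median -0.0041), among them Uba6 (0.16), Nploc4 (0.15) and Ubb (-0.29). Without wild type replicate 1 the log2 change of Ubb was -0.03 and that of Uba6 0.10, and without Elektra replicate 1 that of Nploc4 was 0.09.

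Genes of antigen processing, which use the peptides that the immunoproteasome makes, were lower for 8 of 12 (median -0.08). Of the 12, 0 had an unadjusted p under 0.05 (5.5% of all genes), and 1, Tapbp, did not overlap between groups (3.23%). Tapbp averaged 5.69 ± 0.04 in Elektra, against 5.52 ± 0.08 in wild type, without overlap, and Irf1, an activator of Psmb8 and Psmb9, averaged 4.39 ± 0.36 in Elektra, against 4.75 ± 0.09 in wild type. The log2 change of Irf1 was -0.36, and -0.19 without Elektra replicate 2. Tap2 had a log2 change of -0.14 and Tap1, the neighbour of Psmb9, of -0.06, beside 0.07 for Psmb8 and 0.14 for Psmb9. Psmc3ip, matched by name alone, averaged 2.97 ± 0.54 in Elektra, against 3.32 ± 0.19 in wild type, with Elektra replicate 2 at 2.26.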

How the data were processed

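Affymetrix arrays measured RNA of sorted multipotent progenitors, 4 from Elektra and 4 from wild-type mice. Per the labels, 100 to 200 pg of RNA was amplified with 12 PCR cycles. The deposited values are log2 intensities; the authors used RMA and, as the submitters' processing notes name it, Affymetrix Expression Console 1.4. A genome build was not given in the sources used here. The deposited p-value of each probe set equalled a pooled-variance test of the same values within 2.88e-12, and the deposited fold was not used for calls.

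The brightest probe set stood for each of 30918 genes with 1 symbol. Of the 34390 annotated probe sets 31872 named 1 gene, 1 named several and 2517 named none. Genotypes were compared in limma 3.58.1 (R 4.3.3) over all genes with Benjamini-Hochberg adjustment and a threshold of 0.05. The limma fit was tested on simulated data for this comparison, with independent normal noise and 200 changed genes among 30918. The changed genes were drawn from those above the median level and split between log2 changes of 1 and 2. Over 3 runs the fit recovered 64% to 77% of those changed by 1 and 95% to 96% of those changed by 2. Changes as small as those of the proteasome genes were not simulated. The pooled-variance test also called 0 genes after adjustment and 1572 at an unadjusted p under 0.05, against 1702 in limma. The dim level is the 40th percentile of the gene means. The precision is limited by the number of arrays. No pair of arrays held identical values.

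Genes named are the catalytic subunits, Psme1, Psme2, up to 3 members per class and list with the smallest unadjusted p, members with an unadjusted p under 0.05 or without overlap, and, chosen after their values were seen, further members that complete a class. Members and lists were chosen with earlier results of these data known. Promoters came from RefSeq (GRCm38.p6). A comparison of the catalytic proteins was not run, as no protein table was used here. Alternatives covered the other deposited table, scaling, dim genes, probe sets, spread model, array weights, a replicate block and arrays left out.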

Additional observations from a re-analysis of the deposited data

Results flagged for a closer look

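In 9 of 100 gene and genotype groups, 1 array lay apart from the other 3 by Dixon's test. Chance gives about 5 if the groups are independent. As subunits vary together across arrays, they are not, and 9 cannot be weighed against 5. The groups cover all 50 genes matched by name, Psmb5-ps and Psmc3ip included. Elektra replicate 2 was the array for Psmb2 (7.54, others 8.08 to 8.11), Psmd8 (6.03, others 6.60 to 6.70), Psmg2 (3.99, others 4.34 to 4.41) and, on the high side, Psmd9 (4.05, others 3.69 to 3.75). Wild type replicate 1 was the array for Psma7 (7.44, others 7.68 to 7.73), Psmc4 (5.74, others 5.98 to 6.01) and Psmd6 (5.26, others 5.88 to 5.97). In Elektra, replicate 1 lay apart for Psmd12 (5.68, others 5.97 to 6.02) and replicate 4 for Psme4 (4.91, others 5.11 to 5.14).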

How the results depend on the processing

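No proteasome gene passed the adjusted threshold under any alternative run, and Psmd10, Psmd5 and Psmd9 kept their direction in all of them. With quantile normalization the median deviation of Elektra replicate 2 was 0.0039. In that setting 5 proteasome genes had an unadjusted p under 0.05, against 5.56% of all genes. Leaving out Elektra replicates 2 and 3 and wild type replicate 4 gave 1 such gene and 14 without overlap, in 2 against 3 arrays. In that setting 4.89% of all genes had such a p and 20% did not overlap. Leaving out 1 array at a time gave 2 to 5 such genes and 3 to 10 without overlap, both highest without Elektra replicate 2, where 5.08% of all genes had such a p and 5.88% did not overlap. Over all genes, median centring gave 452 with an unadjusted p under 0.05 on the higher side and 1273 on the lower (814 and 888 as deposited), and leaving out dim genes gave 405 on the higher side of 1062 in all. Psmb9 minus Psmb6 lay between -0.0070 and 0.11 with 1 array left out, lowest without wild type replicate 1. Psme1 was 0.046 with quantile normalization and 0.022 with array weights, and Psmf1 was 0.0056 with quantile normalization. Without Elektra replicate 3 and wild type replicate 4, Psme2 was -0.023, Psma8 -0.073, Psmd1 -0.019 and Psmd7 -0.016. Without Elektra replicate 2 as well, Psme2 was -0.21, Psma5 -0.037 and Psmb11 -0.075. With 1 array left out, Psmb8 lay between -0.028 and 0.15, Psmb10 between -0.034 and 0.11, Psme1 between -0.11 and 0.081, Psme2 between -0.050 and 0.23, Psma8 between -0.049 and 0.41, Psmd1 between -0.047 and 0.22, Psme3 between -0.057 and 0.12, Psmf1 between -0.16 and 0.14, and Psmg1 between -0.065 and 0.37. The cause was not tested. Arrays with the same replicate number had deviations that correlated at 0.13, 0.011, 0.13 and 0.05. Those with different numbers correlated at -0.19 to 0.14. These values cannot decide whether samples were paired, and the labels name no pairing, so the numbers were not taken to pair samples. With the replicate number as a block, 0 genes passed and 1880 had an unadjusted p under 0.05.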
